A study of Mus musculus with 8 samples.

Results

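The genes described here are 38 enzymes, carriers and regulators of fatty acid oxidation in mitochondria and peroxisomes, taken by symbol from a list of names. All 38 were found among the 20245 entries of each library, and all 38 passed a filter of at least 1 FPKM (fragments mapped, per kilobase of transcript and scaled to library size) in at least 2 libraries, as did 14391 genes in all. Of the members, 21 act in mitochondria and 10 in peroxisomes, 5 act in both or have an uncertain place, and 2 are regulators. Whole-kidney RNA of C57BL/6 mice gave 8 libraries, in 4 groups of 2. WT_DMSO and WT_FP were kidneys of wild-type mice given the solvent DMSO or flavopiridol, an inhibitor of the transcription kinase CDK9. PKD_DMSO and PKD_FP were kidneys of mice modelling autosomal dominant polycystic kidney disease with the same treatments. The sources used here name neither the mutated gene, the allele or Cre, the dose and the age nor whether libraries came from separate animals, so p-values measure the spread between these libraries, which may be technical.

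Fatty acid oxidation shortens acyl chains by a repeated spiral of dehydrogenation, hydration, dehydrogenation and cleavage. A chain is first joined to coenzyme A, and long chains enter mitochondria on carnitine. The first dehydrogenation passes electrons to the electron transfer flavoprotein in mitochondria but to oxygen in peroxisomes, which take very long, branched and bile-acid-like chains and hand shortened products on. Proximal tubule cells of the kidney rely on this pathway for much of their energy, and the nuclear receptor PPARα with the coactivator PGC-1α is known to drive its genes.

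Summed FPKM per library ranged from 486060 to 572823. Low values fell on steps that give an estimated depth of 13900000 to 17900000 reads per library, at which 1 read on a transcript of 1 kb is worth 0.056 to 0.072 FPKM. Umod, a marker of the thick ascending limb, stood at 717 to 1291 FPKM and the proximal tubule phosphate transporter gene Slc34a1 at 191 to 1879 FPKM, as a kidney label asks. One library stood apart: WT_FP replicate 2 held 99.4 FPKM of the brown fat gene Ucp1 and 47.3 FPKM of the fat cell gene Adipoq, against 0.17 to 0.68 and 0.25 to 0.75 FPKM in the other wild-type libraries. Wild-type libraries correlated best across treatments, at 0.99 between WT_DMSO replicate 2 and WT_FP replicate 1 and 0.98 between WT_DMSO replicate 1 and WT_FP replicate 2, and at 0.97 and 0.96 within the groups (Pearson's r over genes, log2 scale). The 2 DMSO-treated wild-type libraries differed in the members too: replicate 2 was above replicate 1 in 32 of 38, with a median log2 difference of 0.42, while the median over all genes tested was −0.16. Fold changes also followed transcript length, with a Spearman correlation over 13923 genes of 0.22 between PKD_DMSO and WT_DMSO and −0.31 between PKD_FP and PKD_DMSO, so a fit with the trends on length and GC content removed was added after seeing the data.

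Without drug, polycystic kidneys had lower levels of 10 of the 38 genes and higher levels of none, by limma with Benjamini-Hochberg adjustment over all genes tested (adjusted p under 0.05). Among all genes tested 7.52% were called lower and 14.8% higher in that comparison. The genes that fell were the medium-chain activation genes Acsm1 and Acsm2, the carnitine enzymes Cpt2 and Crat, the dehydrogenase gene Acadm, the thiolase gene Acaa2, the isomerase gene Ech1, the electron carrier gene Etfb, the peroxisomal oxidase gene Acox2 and the coactivator gene Ppargc1a. The median log2 difference of the 38 was −0.42, beside 0.12 for all genes tested, and 32 of 38 lay below 0 (42.1% of all genes tested). Median-of-ratios scaling, which moved the median of all genes tested to −0.01, left the members at −0.57. Library values of PKD_DMSO and WT_DMSO did not overlap in 22 members, 21 lower and 1 higher, against 24.5% and 41.2% of all genes tested. Leaving out PKD_DMSO replicate 2 took the count of 10 to 0, leaving out WT_DMSO replicate 2 to 2, and leaving out PKD_DMSO replicate 1 or either WT_FP library to 6. Of 18 alternative settings, single calls held in 17 for Etfb, 16 for Cpt2, Acaa2 and Acsm2, 15 for Acsm1 and 13 for Acox2. They held in 8 for Crat, 7 for Ech1 and Ppargc1a and 5 for Acadm. The 18 include a crossed pairing of replicates and the length and GC correction, both added after seeing the data.

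With drug in both groups, polycystic kidneys had lower levels of 17 of the 38 genes and higher levels of none (limma with Benjamini-Hochberg; 5.23% of all genes tested were called lower and 8.71% higher). All 38 log2 differences lay below 0 (44.7% of all genes tested), with a median of −0.98 beside 0.07 for all genes tested. Values of PKD_FP and WT_FP did not overlap in 35 members, every time lower in PKD_FP, against 25.2% of all genes tested. The 2 genotype comparisons compare different libraries but share 1 estimate of each gene's spread, from the fit over all 8, so their calls are not independent. In both, 8 genes fell, which is 80% of the 10 and 47.1% of the 17: Acsm1, Acsm2, Cpt2, Crat, Acadm, Acaa2, Acox2 and Ppargc1a. The overlap over all genes tested was not computed. The remaining calls were Ech1 and Etfb without drug, and Cpt1a, Acadvl, Hadha, Hadhb, Acox3, Eci1, Etfa, Ppara and Acsl1 with drug. Leaving out PKD_FP replicate 2 took the count of 17 to 0, WT_FP replicate 1 to 1, PKD_FP replicate 1 to 2, either PKD_DMSO library to 7, and WT_FP replicate 2 to 9. After median-of-ratios scaling it was 6. Of 17 alternative settings, single calls held in 16 for Acox2, 15 for Acsl1, 13 for Acox3 and Acsm2, 12 for Ppara, 10 for Cpt2, 9 for Acadm and Etfa and 8 for Acadvl. They held in 7 for Acaa2 and Acsm1, 6 for Hadha, Hadhb, Ppargc1a and Crat, 5 for Eci1 and 4 for Cpt1a.

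Summed over 16 proximal tubule marker genes, of which at most 1 was under 1 FPKM in any library, levels were 32196 and 32616 FPKM in WT_DMSO and 21865 and 22996 in WT_FP. They were 4216 and 2265 in PKD_DMSO and 4353 and 5209 in PKD_FP. Such sums are set mostly by the most abundant markers. The median marker stood at 133 and 205 FPKM in WT_DMSO and 184 and 87.0 in WT_FP. It stood at 52.9 and 31.0 FPKM in PKD_DMSO and 25.05 and 27.3 in PKD_FP. In polycystic kidneys the sums were thus higher with drug and the medians lower. Of these markers 9 were called lower without drug (median log2 difference −2.24) and 11 with drug (−1.96). Of 8 markers of the thick ascending limb and distal tubule 3 and 4 were called lower and 0 and 1 higher (−1.36 and −1.46). Collecting duct markers were lower in 2 and 1 of 7 (−0.74 and −0.50). Markers of tubule injury were higher in 8 of 8 in both comparisons (2.87 and 2.47), and macrophage markers in 9 and 8 of 10. Fibroblast markers were higher in 3 of 6 in both (1.97 and 2.23), and no endothelial marker passed (−0.55 and −0.69). In whole-kidney RNA, fewer cells of a type and less RNA per cell cannot be told apart, and the part of these shifts in the members' values was not tested.

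**Figure D1:**
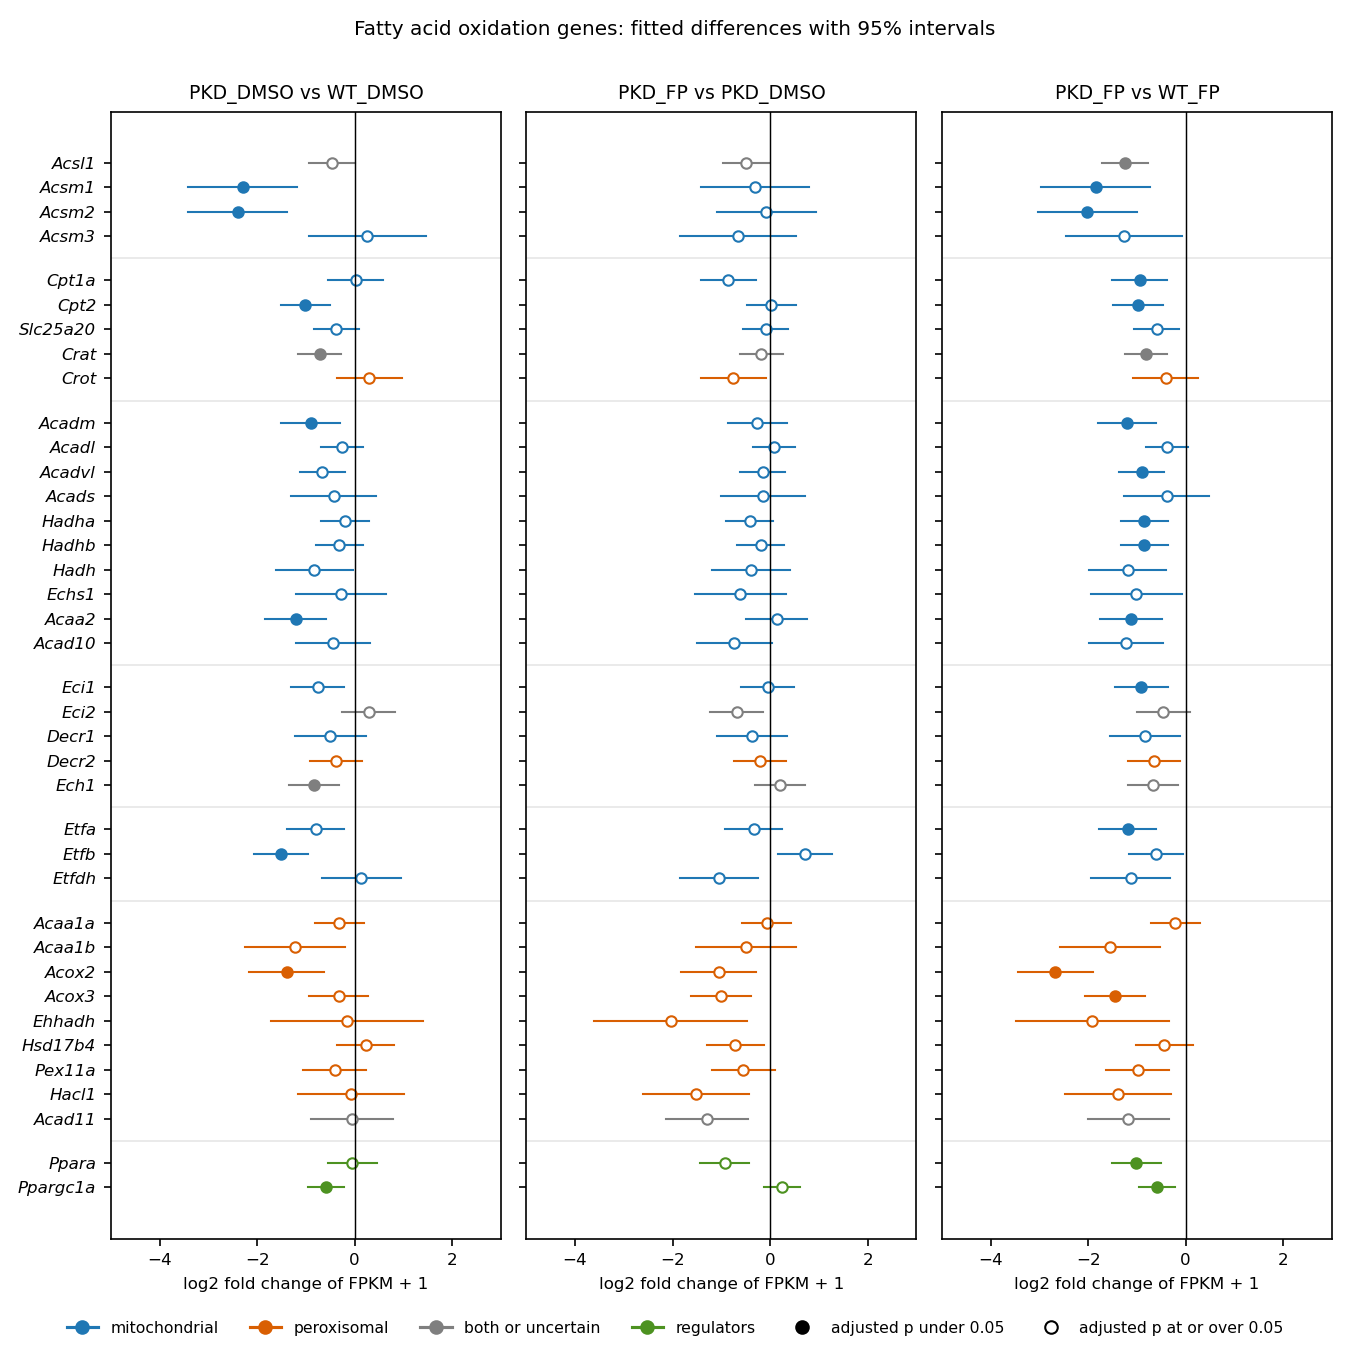
Log2 differences of the 38 genes with 95% intervals (x axis, log2(FPKM + 1) scale) in 3 comparisons, one panel each, with genes on the y axis coloured by the compartment they act in; filled points passed an adjusted p of 0.05. In the panel of PKD_FP against WT_FP all 38 points lie left of 0 and 17 are filled, 10 are filled in PKD_DMSO against WT_DMSO, and none in PKD_FP against PKD_DMSO.

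Activation genes held the 2 steepest falls without drug. Acsm2 (chromosome 7, 119554340 to 119600694), a medium-chain acyl-CoA synthetase of proximal tubule mitochondria, stood at 190.3 and 281 FPKM in WT_DMSO, 253 and 112 in WT_FP, 52.0 and 35.7 in PKD_DMSO, and 49.7 and 33.6 in PKD_FP. Every polycystic library was below every wild-type library. The log2 difference was −2.40 ± 0.43 without drug (limma, adjusted p = 0.0126), a 5.26-fold lower level, and −2.02 ± 0.43 with drug (limma, adjusted p = 0.029). Its neighbour Acsm1 (chromosome 7, 119617757 to 119662515), 17.1 kb away and with no stretch of 50 bases in common, stood at 80.3 and 107 FPKM in WT_DMSO, 82.3 and 35.8 in WT_FP, 25.5 and 12.7 in PKD_DMSO, and 17.7 and 11.6 in PKD_FP. The same separation of genotypes held, with log2 differences of −2.30 ± 0.47 (limma, adjusted p = 0.0185) and −1.85 ± 0.47 (limma, adjusted p = 0.0458). In both genes WT_FP replicate 2 was the lowest wild-type library, and 14 of 16 proximal tubule markers were lower there than in WT_FP replicate 1. Acsm3, the third gene of the cluster, was near the filter at 0.20 to 4.23 FPKM, highest in the library with fat cell transcripts, and passed in no comparison. Acsl1, which activates long chains, stood at 74.1 and 73.5 FPKM in WT_DMSO, 95.5 and 85.7 in WT_FP, 57.6 and 49.8 in PKD_DMSO, and 45.5 and 31.5 in PKD_FP. Its log2 difference was −0.46 ± 0.20 without drug, which did not pass (limma, adjusted p = 0.143), and −1.24 ± 0.20 with drug, which did (limma, adjusted p = 0.0149).

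The 250 bases before the start of Acsm2 are shown because it fell furthest without drug and is the one member of 34 with a promoter entry that holds a TATA box with the letters TATAAA (capitals, first base 28 before the start), in this window. Of all genes with an entry 14.3% hold it. The sequence is RefSeq's, build GRCm38.p6, chr7:119554090-119554339, plus strand, 5′ to 3′:
Acsm2: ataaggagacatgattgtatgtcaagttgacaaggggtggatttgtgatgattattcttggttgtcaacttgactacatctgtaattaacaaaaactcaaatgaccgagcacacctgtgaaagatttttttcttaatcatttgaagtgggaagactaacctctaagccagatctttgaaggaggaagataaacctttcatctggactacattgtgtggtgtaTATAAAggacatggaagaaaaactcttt

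Of the carnitine shuttle, the inner-membrane transferase gene Cpt2 fell in both genotype comparisons, the outer-membrane gene Cpt1a in 1. Cpt2 (chromosome 4, 107903982 to 107923589) stood at 48.4 and 63.2 FPKM in WT_DMSO, 61.3 and 49.5 in WT_FP, 30.7 and 23.7 in PKD_DMSO, and 30.0 and 25.1 in PKD_FP. Polycystic libraries were all below the wild-type ones, with log2 differences of −1.01 ± 0.21 (limma, adjusted p = 0.0201) and −0.98 ± 0.21 (limma, adjusted p = 0.0309). Cpt1a (chromosome 19, 3322326 to 3385735), the regulated entry step, stood at 57.4 and 74.5 FPKM in WT_DMSO, 88.1 and 56.3 in WT_FP, 69.6 and 63.0 in PKD_DMSO, and 37.8 and 34.6 in PKD_FP. Vehicle-treated polycystic libraries lay within the wild-type range, and the 2 PKD_FP libraries lay below all others. Its log2 difference was 0.02 without drug (interval −0.55 to 0.59), −0.94 ± 0.24 with drug (limma, adjusted p = 0.0456) and −0.85 ± 0.24 between PKD_FP and PKD_DMSO, which did not pass (limma, adjusted p = 0.151). The call with drug held in the fewest settings of all, 4 of 17. Crat, the carnitine acetyltransferase gene, stood at 28.7 and 36.4 FPKM in WT_DMSO, 31.4 and 29.6 in WT_FP, 21.4 and 17.5 in PKD_DMSO, and 18.9 and 15.2 in PKD_FP. It fell by 0.71 on the log2 scale without drug (limma, adjusted p = 0.0364) and by 0.81 with drug (limma, adjusted p = 0.0347). The carrier gene Slc25a20 (28.7 to 50.4 FPKM) and Crot, the peroxisomal octanoyltransferase gene (26.7 to 50.3 FPKM), passed in no comparison.

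All 10 genes of the mitochondrial spiral lay below 0 in both genotype comparisons, of which 2 passed without drug and 5 with drug. Acadm (chromosome 3, 153922353 to 153944643), the medium-chain dehydrogenase gene, stood at 154 and 246 FPKM in WT_DMSO, 225 and 178 in WT_FP, 109 and 98.7 in PKD_DMSO, and 93.7 and 79.0 in PKD_FP. Genotypes did not overlap, with log2 differences of −0.90 ± 0.25 (limma, adjusted p = 0.0453) and −1.21 ± 0.25 (limma, adjusted p = 0.0282). The first of these is close to the threshold and held in 5 of 18 alternative settings. Acaa2, the mitochondrial thiolase gene, stood at 166 and 237 FPKM in WT_DMSO, 238 and 176 in WT_FP, 98.3 and 73.9 in PKD_DMSO, and 106 and 83.2 in PKD_FP. It fell in both comparisons, with log2 differences of −1.21 ± 0.26 (limma, adjusted p = 0.0227) and −1.12 ± 0.26 (limma, adjusted p = 0.0387). Acadvl, the very-long-chain dehydrogenase gene, stood at 115 and 155 FPKM in WT_DMSO, 144 and 141 in WT_FP, 91.3 and 77.5 in PKD_DMSO, and 82.4 and 69.8 in PKD_FP. Its difference of −0.66 ± 0.19 just missed the threshold without drug (limma, adjusted p = 0.0514) and −0.90 ± 0.19 passed with drug (limma, adjusted p = 0.0297).

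Hadha and Hadhb encode the α and β subunits of the trifunctional protein, which carries out the last 3 steps of the spiral on long chains. Hadha (chromosome 5, 30119423 to 30154980) stood at 56.5 and 71.6 FPKM in WT_DMSO, 72.4 and 77.01 in WT_FP, 57.5 and 53.6 in PKD_DMSO, and 49.1 and 34.5 in PKD_FP. Hadhb (chromosome 5, 30155253 to 30184593) stood at 80.3 and 118 FPKM in WT_DMSO, 115 and 133 in WT_FP, 78.8 and 77.2 in PKD_DMSO, and 69.2 and 66.8 in PKD_FP. In both, WT_FP replicate 2 was the highest of the 8 libraries and the PKD_FP libraries were the 2 lowest. Differences without drug were −0.19 and −0.32 and did not pass (limma, adjusted p = 0.529 and 0.299), and those with drug were −0.84 ± 0.21 and −0.85 ± 0.20 and passed (limma, adjusted p = 0.0414 and 0.0387). Without WT_FP replicate 2 the differences with drug were −0.80 for Hadha and −0.75 for Hadhb, neither of which passed (limma, adjusted p = 0.119 and 0.126). The remaining spiral genes passed in no comparison: Acadl (96.3 to 154 FPKM, long-chain dehydrogenase), Acads (25.9 to 65.9 FPKM, short-chain dehydrogenase), Hadh (73.5 to 259 FPKM), Echs1 (44.8 to 151 FPKM) and Acad10 (4.12 to 16.3 FPKM). With drug Hadh stood at −1.19 ± 0.33 (limma, adjusted p = 0.0596) and Acad10 at −1.22 ± 0.32, just over the threshold.

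Hadha and Hadhb start 272 bases apart on opposite strands, so 1 stretch lies before both. The 250 bases before the start of Hadhb are shown because these 2 genes share them, with GGGCGG, the GC box bound by Sp1, in capitals at 90 and 25 before the start (RefSeq, GRCm38.p6, chr5:30155003-30155252, plus strand, 5′ to 3′). Of the 34 members with an entry 21 hold this motif on either strand, 61.8%, against 35.4% of all 27025 genes with one. Those genes, and the shares of all genes given for the other motifs, include genes that did not pass the filter here. All members passed it, so the 2 shares are not of like genes.
Hadhb: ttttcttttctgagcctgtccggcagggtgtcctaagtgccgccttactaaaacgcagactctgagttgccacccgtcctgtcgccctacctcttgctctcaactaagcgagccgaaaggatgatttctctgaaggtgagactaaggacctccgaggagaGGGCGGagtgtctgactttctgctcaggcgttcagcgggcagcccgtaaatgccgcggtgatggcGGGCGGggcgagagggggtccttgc

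Among auxiliary enzymes, which prepare unsaturated chains for the spiral, Ech1 and Eci1 passed in 1 comparison each. Ech1, a dienoyl-CoA isomerase gene and the second most abundant member per length, stood at 279.6 and 375 FPKM in WT_DMSO, 359 and 313 in WT_FP, 196 and 168 in PKD_DMSO, and 238 and 184 in PKD_FP. It fell by 0.83 ± 0.22 without drug (limma, adjusted p = 0.0364), and its −0.68 ± 0.22 with drug did not pass (limma, adjusted p = 0.084), although polycystic libraries were below wild-type libraries in both. Eci1, the mitochondrial enoyl-CoA isomerase gene, stood at 143 and 177 FPKM in WT_DMSO, 181 and 163 in WT_FP, 109 and 80.2 in PKD_DMSO, and 105 and 78.2 in PKD_FP. Its log2 differences were −0.76 ± 0.23 (limma, adjusted p = 0.0562) and −0.91 ± 0.23 (limma, adjusted p = 0.044), the second past the threshold. Eci2, its relative with a peroxisomal form, was the 1 member whose PKD_DMSO libraries were both above both WT_DMSO libraries, at 54.0 and 67.6 FPKM in WT_DMSO, 71.5 and 55.2 in WT_FP, 78.1 and 69.8 in PKD_DMSO, and 54.1 and 38.1 in PKD_FP. The difference of 0.28 ± 0.23 did not pass (limma, adjusted p = 0.4). The reductase genes Decr1 (21.8 to 64.7 FPKM) and Decr2 (15.7 to 30.0 FPKM) passed in no comparison.

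The 3 electron transfer genes, whose products pass electrons from the dehydrogenases to the respiratory chain, had unlike values. Etfb (chromosome 7, 43444072 to 43457800), encoding the β subunit of the electron transfer flavoprotein, was the most abundant member per length, at 709.5 and 663 FPKM in WT_DMSO, 605 and 601 in WT_FP, 299 and 192 in PKD_DMSO, and 439.5 and 354 in PKD_FP. Wild-type levels lay above 600 FPKM, PKD_DMSO was lowest, and PKD_FP lay between without overlap. Its mean was 686 ± 33.2 FPKM in WT_DMSO and 246 ± 75.5 in PKD_DMSO (SD, n = 2). The log2 difference without drug was −1.51 ± 0.23 (limma, adjusted p = 0.00823), the call that held in the most settings, 17 of 18. With drug it was −0.61 ± 0.23 and did not pass (limma, adjusted p = 0.131). Etfa, the α subunit gene, stood at 152 and 212 FPKM in WT_DMSO, 218 and 158 in WT_FP, 106 and 99.8 in PKD_DMSO, and 93.0 and 70.6 in PKD_FP. It differed by −0.80 ± 0.25 without drug (limma, adjusted p = 0.0593) and fell by 1.19 ± 0.25 with drug (limma, adjusted p = 0.0274). Etfdh, the gene of the dehydrogenase that passes these electrons to ubiquinone, stood at 23.3 and 47.7 FPKM in WT_DMSO, 44.6 and 33.7 in WT_FP, 37.4 and 36.1 in PKD_DMSO, and 20.4 and 14.6 in PKD_FP. Its PKD_DMSO libraries lay inside the WT_DMSO range, and its PKD_FP libraries lay below all others. The difference between PKD_FP and PKD_DMSO was −1.05 ± 0.34 for Etfdh and 0.72 ± 0.23 for Etfb, and neither passed (limma, adjusted p = 0.179 and 0.18). With the length and GC trends removed the Etfb value was 0.40 and that of Etfdh −1.02. Etfb has the shortest longest transcript of the members, 893 bases.

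Peroxisomal enzymes included the largest difference of all, that of Acox2. Acox2 (chromosome 14, 8225511 to 8259019), the oxidase of branched chains and bile acid side chains, stood at 23.6 and 45.7 FPKM in WT_DMSO, 41.1 and 36.7 in WT_FP, 13.7 and 10.4 in PKD_DMSO, and 6.34 and 4.32 in PKD_FP. Polycystic libraries were below wild-type libraries, and PKD_FP libraries were below PKD_DMSO libraries. It fell by 1.39 ± 0.32 on the log2 scale without drug (limma, adjusted p = 0.0269) and stood at −2.67 ± 0.32 with drug, a 6.37-fold lower level (limma, adjusted p = 0.00818). The second call held in 16 of 17 alternative settings. Acox3, another oxidase of branched chains, stood at 26.9 and 35.0 FPKM in WT_DMSO, 41.9 and 26.4 in WT_FP, 26.4 and 22.2 in PKD_DMSO, and 10.3 and 13.1 in PKD_FP. Its PKD_FP libraries were both below all others, and it fell by 1.44 ± 0.26 against WT_FP (limma, adjusted p = 0.0194), while −0.33 ± 0.26 without drug did not pass (limma, adjusted p = 0.388).

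Ehhadh (chromosome 16, 21761285 to 21787834), the peroxisomal bifunctional enzyme gene and a classical PPARα target, stood at 37.1 and 95.2 FPKM in WT_DMSO, 82.0 and 28.9 in WT_FP, 61.6 and 46.3 in PKD_DMSO, and 19.4 and 7.55 in PKD_FP. Its PKD_FP libraries were the 2 lowest of 8, but wild-type replicates spread widely, at 37.1 against 95.2 FPKM in WT_DMSO. The difference between PKD_FP and PKD_DMSO was −2.04 ± 0.66 (limma, adjusted p = 0.178) and that between PKD_FP and WT_FP −1.92 ± 0.66 (limma, adjusted p = 0.101), and neither passed. Acaa1b, a peroxisomal thiolase gene and the third most abundant member per length, stood at 247 and 234 FPKM in WT_DMSO, 257 and 181 in WT_FP, 154 and 68.2 in PKD_DMSO, and 97.1 and 54.4 in PKD_FP. Genotypes did not overlap, and the differences of −1.22 ± 0.43 and −1.56 ± 0.43 did not pass (limma, adjusted p = 0.0854 and 0.0579). Its copy Acaa1a (54.4 to 89.6 FPKM) shares 34% of its 50-base stretches with it, so reads may be split between them and both levels are uncertain. Hsd17b4, the second bifunctional enzyme gene (42.6 to 83.1 FPKM), Hacl1, the lyase gene of α-oxidation (4.47 to 25.4 FPKM), Acad11 (8.58 to 38.02 FPKM) and the peroxisome division gene Pex11a (8.31 to 23.8 FPKM) passed in no comparison.

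The 250 bases before the starts of Acox2 and Ehhadh are shown as the peroxisomal genes with the steepest values. Capitals mark, in Acox2, the 1 match among the members to GGNCANAGGNCA, a relaxed form of the direct repeat that PPARα binds (first base 56 before the start; 0.81% of all genes hold one). In Ehhadh they mark GC boxes at 91 (opposite strand) and 10 before the start. The stricter letters AGGTCA, 1 unit of that repeat, occur in 5 of 34 members (Acadm, Acadvl, Acsm1, Cpt1a and Echs1), 14.7% against 15.8% of all genes. Both strands were searched, and a match is a description of letters. The sequences are RefSeq's (GRCm38.p6, minus strand, 5′ to 3′), at chr14:8259020-8259269 and chr16:21787835-21788084.
Acox2: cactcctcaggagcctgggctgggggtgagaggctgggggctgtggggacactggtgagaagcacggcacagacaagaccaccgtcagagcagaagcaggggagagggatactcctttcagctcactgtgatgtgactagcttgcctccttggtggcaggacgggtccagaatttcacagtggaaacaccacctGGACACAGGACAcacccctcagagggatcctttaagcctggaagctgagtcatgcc
Ehhadh: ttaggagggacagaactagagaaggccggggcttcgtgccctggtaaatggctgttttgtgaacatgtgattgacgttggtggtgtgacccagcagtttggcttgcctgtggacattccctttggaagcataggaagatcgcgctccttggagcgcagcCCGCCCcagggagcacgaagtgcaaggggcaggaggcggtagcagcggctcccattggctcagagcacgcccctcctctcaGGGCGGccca

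Of the regulators, Ppargc1a, encoding PGC-1α, was lower in polycystic kidneys with either treatment, and Ppara, encoding PPARα, with drug. Ppargc1a (chromosome 5, 51454249 to 52115853) stood at 22.2 and 17.6 FPKM in WT_DMSO, 22.9 and 24.4 in WT_FP, 13.1 and 12.6 in PKD_DMSO, and 14.6 and 16.2 in PKD_FP. It fell by 0.58 ± 0.16 without drug (limma, adjusted p = 0.0392) and by 0.59 ± 0.16 on the log2 scale with drug, just under the threshold (limma, adjusted p = 0.05 when rounded). Ppara (chromosome 15, 85734910 to 85806851) stood at 20.1 and 18.6 FPKM in WT_DMSO, 20.5 and 19.1 in WT_FP, 22.1 and 15.8 in PKD_DMSO, and 11.0 and 7.88 in PKD_FP. The PKD_FP libraries were below the other 6, which lay between 15.8 and 22.1 FPKM. The differences were −0.05 ± 0.21 without drug (interval −0.55 to 0.46), −1.01 ± 0.21 with drug (limma, adjusted p = 0.0282) and −0.93 ± 0.21 between PKD_FP and PKD_DMSO (interval −1.44 to −0.43; limma, adjusted p = 0.125).

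**Figure D2:**
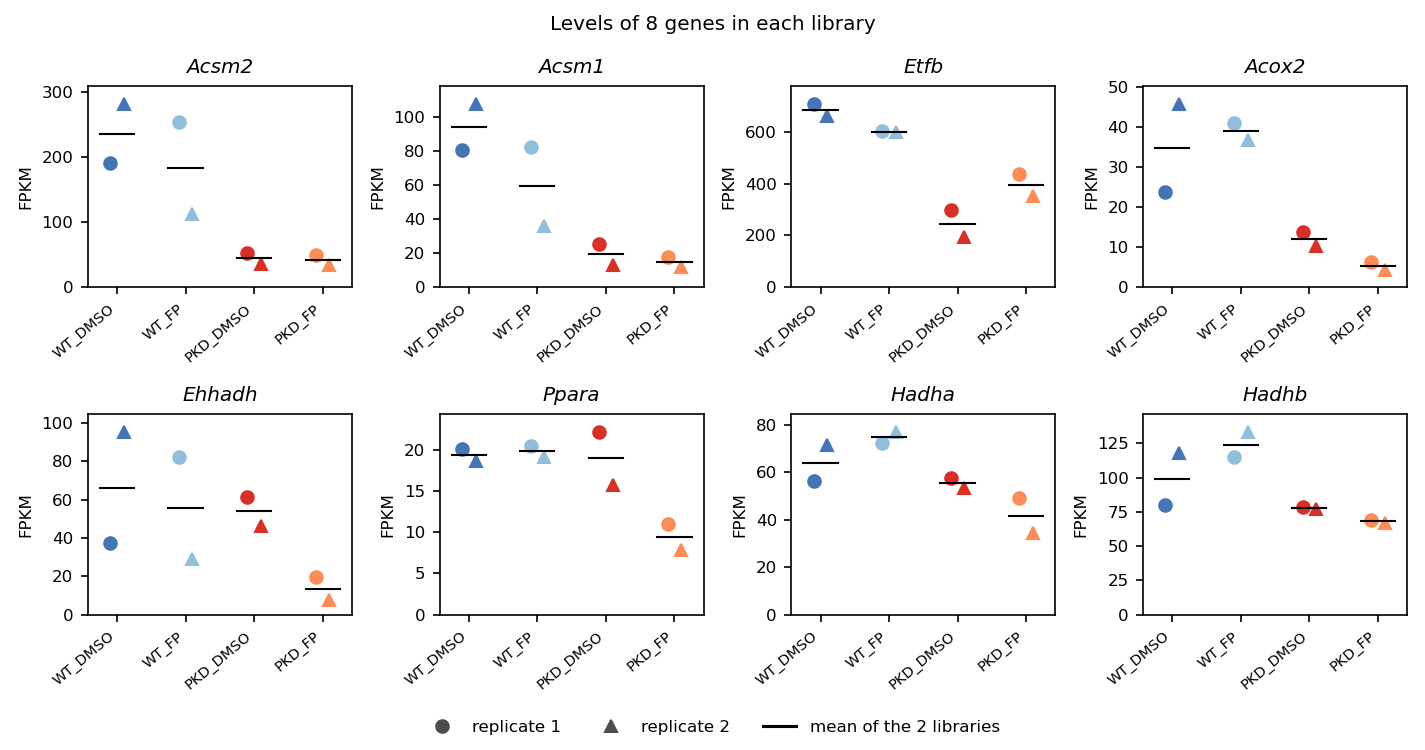
FPKM in each of the 8 libraries (y axis, linear from 0) by group (x axis) for 8 of the genes, with points for libraries and horizontal lines for group means. In Acsm2, Acsm1 and Acox2 both polycystic groups lie below the wild-type groups, in Etfb PKD_DMSO is lowest at 299 and 192 FPKM, and in Ppara the PKD_FP points (11.0 and 7.88 FPKM) lie below the rest.

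Flavopiridol against vehicle changed no member past the threshold in either genotype. These comparisons share their libraries with the genotype comparisons above. In polycystic kidneys 0 of 38 passed (limma with Benjamini-Hochberg; 0.0139% of all genes tested passed), and the smallest adjusted p was that of Ppara. At an unadjusted p under 0.05, 12 members were lower and 1, Etfb, was higher, and 9.14% of all genes tested were lower. The median log2 difference was −0.38 beside 0.04 for all genes tested, and 32 of 38 lay below 0 (45.9% of all genes tested). Values did not overlap in 22 members, 20 lower and 2 higher (Etfb and Ppargc1a), against 25.2% and 31.4% of all genes tested. The most negative values were those of Ehhadh (−2.04), Hacl1 (−1.52), Acad11 (−1.29), Acox2 (−1.05), Etfdh (−1.05) and Acox3 (−1.001), of which 4 are peroxisomal enzymes and Acad11 may act there.

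In wild-type kidneys 0 of 38 passed, as did 0% of all genes tested (limma with Benjamini-Hochberg), and none had an unadjusted p under 0.05 (1.27% of all genes tested). Log2 differences ran from −0.76 in Acsm1 to 0.88 in Acsm3 around a median of 0.04, which became −0.08 after median-of-ratios scaling, so no direction is given. Groups did not overlap in 4 members, 1 lower (Etfb) and 3 higher (Hadha, Acsl1 and Ppargc1a), against 5.32% and 16.6% of all genes tested, and 15 of 38 lay below 0 (30.3% of all genes tested). Many intervals were wide: that of Ehhadh ran from −1.85 to 1.28 and that of Cpt2 from −0.51 to 0.50, so a 2-fold change was not excluded for the first. The difference of the drug's effect between genotypes passed in 0 members (limma with Benjamini-Hochberg, smallest adjusted p = 0.401 for Ppara at −0.96 ± 0.30). At an unadjusted p under 0.05 it was lower in 6 and higher in 1, while 6.78% of all genes tested were lower and 11.2% had such a p in either direction. In 3 members (Hadha, Acsl1 and Etfb) groups did not overlap in either genotype and lay in opposite directions, as in 7.69% of all genes tested.

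Peroxisomal and mitochondrial members were then compared by the median log2 difference of each list, as a description with no test. Between PKD_FP and PKD_DMSO the 10 peroxisomal genes had a median of −0.74, with 10 of 10 below 0, and the 21 mitochondrial genes −0.26, with 17 of 21 below 0. Outside the members, the 37 other peroxisome genes listed below had a median of only −0.21, with 24 below 0. The 20 other genes of mitochondrial acyl-CoA, ketone body and carnitine metabolism had 0.10, with 8 below 0. The −0.74 is thus not that of peroxisome genes at large. Nor is a fall in this comparison particular to these 10 genes. The 19 PPAR target and nuclear receptor genes tested, also listed below, had a median of −0.54, with 12 below 0. The 16 tested genes of fatty acid uptake, binding and activation had −0.14, with 10 below 0. The gap between the members' medians was −0.47, and taken in the same way between the 2 replicates of a group it was −0.08 in WT_DMSO, −0.21 in WT_FP, −0.07 in PKD_DMSO and 0.05 in PKD_FP. It stayed between −0.66 and −0.47 when any 1 library was left out. With the length and GC trends removed it was −0.44. Between PKD_DMSO and WT_DMSO the medians were −0.32 and −0.50, a gap of 0.17, which was 0.058 without WT_DMSO replicate 2 and 0.36 without WT_DMSO replicate 1. Called lower there were 6 of 21 mitochondrial and 1 of 10 peroxisomal members, against 7.52% of all genes tested. Of both or uncertain place there were 2 of 5, and of regulators 1 of 2. Between PKD_FP and WT_FP the medians were −1.18 and −0.98, and the gap of −0.20 changed sign without WT_FP replicate 1 (0.23) and fell away without PKD_FP replicate 1 (0.02). Here 11 of 21 mitochondrial and 2 of 10 peroxisomal members were called lower, against 5.23% of all genes tested. So were 2 of 5 of both or uncertain place, and 2 of 2 regulators. Between WT_FP and WT_DMSO the gap was −0.09, and 0.08 without WT_FP replicate 2.

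By library, the peroxisomal median lay below the mitochondrial one on the log2(FPKM + 1) scale by 1.36 and 1.28 in WT_DMSO, 1.34 and 1.62 in WT_FP, 0.94 and 0.95 in PKD_DMSO, and 1.45 and 1.03 in PKD_FP. PKD_DMSO had the narrowest gaps, without overlap with any other group. PKD_FP replicate 2 was close to them, and PKD_FP replicate 1 lay inside the wild-type range. Mitochondrial medians were 5.15 and 5.66 in PKD_FP, 6.00 and 6.14 in PKD_DMSO, and 6.34 to 6.89 in wild-type libraries. Medians of the peroxisomal genes were 4.12 and 4.21 in PKD_FP against 5.05 and 5.21 in PKD_DMSO, which lay inside the wild-type range of 4.95 to 5.61. Proximal tubule markers stood at 4.69 and 4.79 in PKD_FP and 5.75 and 4.99 in PKD_DMSO. None of the 16 passed between those groups (limma with Benjamini-Hochberg), where only 0.0139% of all genes tested did. At an unadjusted p under 0.05 (limma), 4 markers were lower and 3 higher, against 19.5% of all genes tested in either direction. The markers' log2 differences ran from −2.58 to 1.87 around a median of −0.39.

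**Figure D3:**
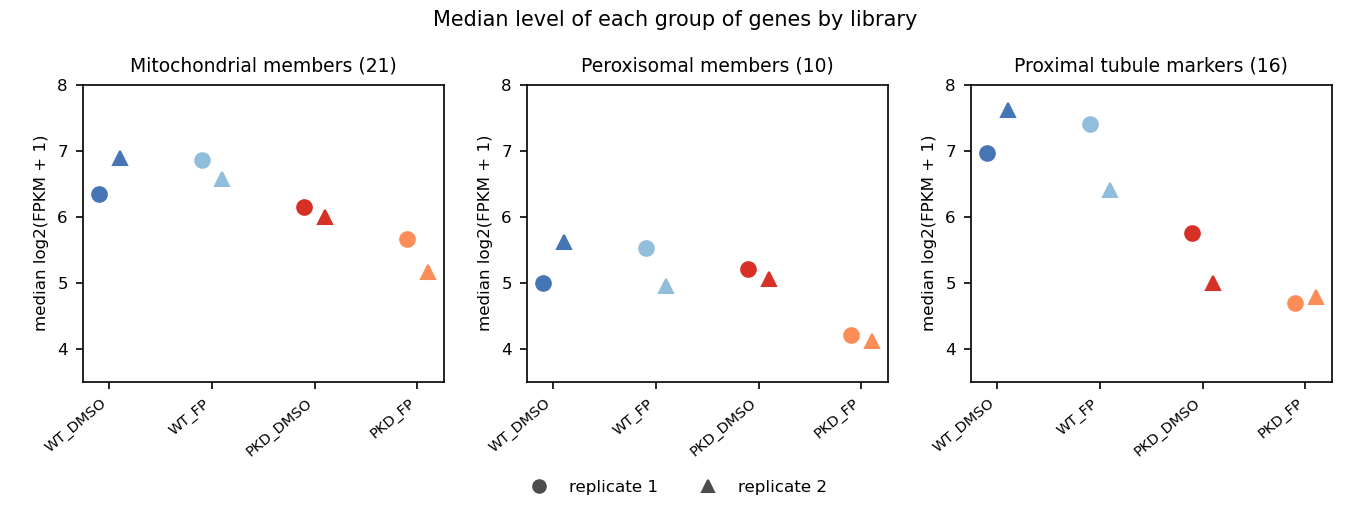
Median log2(FPKM + 1) (y axis, from 3.5 to 8) in each of the 8 libraries (x axis) for 21 mitochondrial members, 10 peroxisomal members and 16 proximal tubule markers. Peroxisomal medians of PKD_DMSO lie among the wild-type ones and those of PKD_FP, 4.12 and 4.21, are the lowest.

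Fat cell transcripts were highest in WT_FP replicate 2. Summed over 10 fat cell markers, that library held 1714 FPKM, the other wild-type libraries 120 to 294, PKD_DMSO 164 and 260, and PKD_FP 151 and 386. Of the 10 markers 1 was under 1 FPKM in WT_FP replicate 2, and 6 or 7 were in the other wild-type libraries, against 3 and 2 in PKD_DMSO and 5 and 2 in PKD_FP. The median marker stood at 45.6 FPKM in WT_FP replicate 2, 0.36 to 0.72 in the other wild-type libraries, 4.23 and 5.76 in PKD_DMSO, and 1.03 and 6.59 in PKD_FP. Between PKD_DMSO and WT_DMSO the 9 markers tested had a median log2 difference of 1.73, and 6 did not overlap, all higher in PKD_DMSO, but 0 passed (limma with Benjamini-Hochberg), and none at an unadjusted p under 0.05. Acadl (112 and 139.8 FPKM in WT_DMSO, 133 and 154 in WT_FP, 114 and 96.3 in PKD_DMSO, and 105 and 115 in PKD_FP), Hadha, Hadhb, Ppargc1a and Acsm3 had their highest value of all in WT_FP replicate 2. Beside these 5 members, 18 were highest in WT_DMSO replicate 2 and 10 in WT_FP replicate 1. The shares of all genes tested that were highest in each library were not computed. Of the 38 members 33 were lower in WT_FP replicate 2 than in replicate 1, and 10 of 10 peroxisomal ones, while 34.8% of all genes tested were lower there. Without this library the comparison of PKD_FP with WT_FP called 9 members in place of 17, and Ppargc1a stood at −0.54 (limma, adjusted p = 0.151). Whether fat tissue set these values was not tested.

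**Figure D4:**
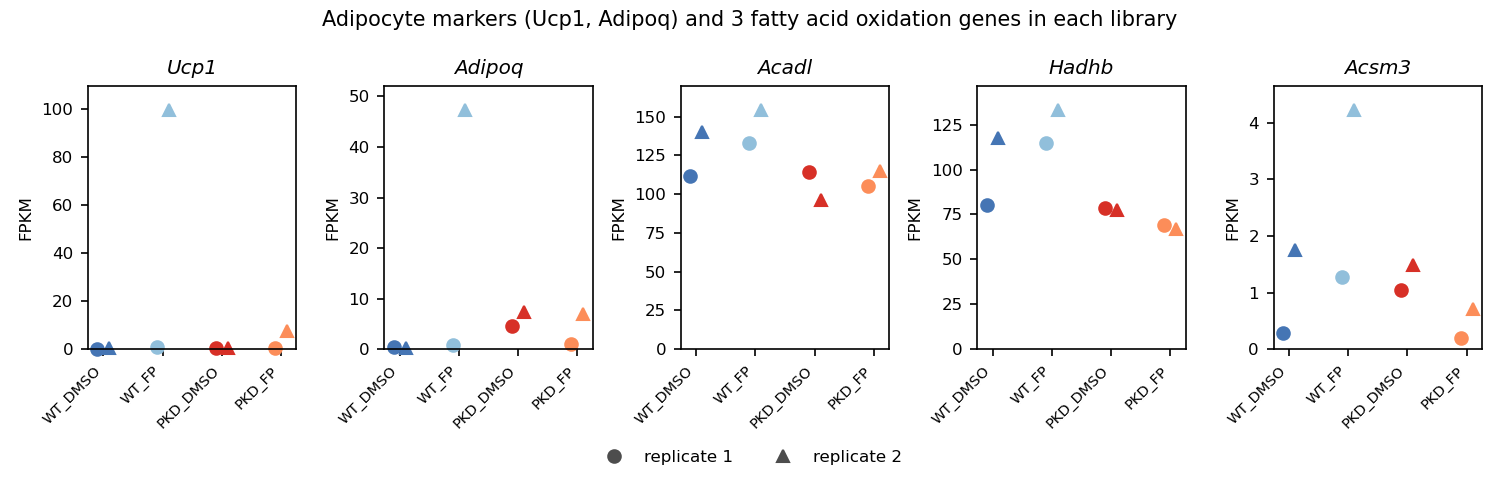
FPKM per library (y axis, linear from 0) by group (x axis) for the fat cell genes Ucp1 and Adipoq and the members Acadl, Hadhb and Acsm3. WT_FP replicate 2, at 99.4 FPKM of Ucp1 and 47.3 of Adipoq, is the highest point in all 5 panels.

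Other genes of the pathway, from 4 lists, passed in no drug comparison. Of all genes tested, 0.0139% passed there in polycystic kidneys and 0% in wild-type kidneys. Of 20 genes of mitochondrial acyl-CoA, ketone body and carnitine metabolism, 10 fell and 0 rose without drug (median log2 difference −0.89), and 7 fell with drug (−0.80). Oxct1, which activates ketone bodies for use, fell by 1.71 ± 0.19 (limma, adjusted p = 0.00358) and with drug by 1.28 (limma, adjusted p = 0.0128). Mcee, the methylmalonyl-CoA epimerase gene, fell by 1.55 (limma, adjusted p = 0.00446), the thioesterase gene Acot13 by 1.56 (limma, adjusted p = 0.00574) and Acadsb, a branched short-chain dehydrogenase gene, by 0.79 (limma, adjusted p = 0.00989). With drug the isovaleryl-CoA dehydrogenase gene Ivd fell by 1.54 (limma, adjusted p = 0.0198). Cpt1b, the muscle and fat form of the entry enzyme, was at 34.2 FPKM in WT_FP replicate 2 and 22.2 in replicate 1 and fell by 1.92 (limma, adjusted p = 0.0265).

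Of 37 other peroxisome genes, 9 fell and 1 rose without drug (−0.45), and 8 fell with drug (−0.51). Hao2, a peroxisomal hydroxyacid oxidase gene, fell by 2.997 ± 0.34 (limma, adjusted p = 0.00398) and with drug by 2.37 (limma, adjusted p = 0.0121). The reductase gene Pecr fell by 2.55 (limma, adjusted p = 0.0217), the peroxiredoxin gene Prdx5 by 1.37 (limma, adjusted p = 0.00759) and the import gene Pex10 by 1.13 (limma, adjusted p = 0.00572). With drug Pex10 fell by 0.71 (limma, adjusted p = 0.0297), the transporter gene Abcd4 by 1.30 (limma, adjusted p = 0.0324) and the thioesterase gene Acot4 by 1.36 (limma, adjusted p = 0.0329).

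Fatty acid uptake, binding and activation had 16 of 17 genes tested, of which 4 fell and 2 rose without drug (−0.53), and 4 fell and 1 rose with drug (−0.50). Acsl4, a synthetase that prefers arachidonic acid, rose in both, and stood at 10.5 and 12.0 FPKM in WT_DMSO, 10.7 and 9.32 in WT_FP, 32.3 and 35.9 in PKD_DMSO, and 17.1 and 17.5 in PKD_FP. Its log2 differences were 1.52 ± 0.14 (limma, adjusted p = 0.00217) and 0.73 ± 0.14 (limma, adjusted p = 0.0238), opposite to those of Acsl1. Acsl5 rose by 1.01 without drug (limma, adjusted p = 0.0169), while the lipase gene Lpl fell by 1.61 (limma, adjusted p = 0.017) and the binding protein gene Fabp3 by 1.12 (limma, adjusted p = 0.0248). With drug Lpl fell by 1.60 (limma, adjusted p = 0.0251), the transporter gene Slc27a2 by 1.36 (limma, adjusted p = 0.025) and the uptake receptor gene Cd36 by 2.28 (limma, adjusted p = 0.028).

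PPAR targets and nuclear receptors had 19 of 21 genes tested, of which 2 fell and 2 rose without drug (median 0.30), and 2 fell with drug (−0.32). Esrra, encoding the receptor ERRα, a partner of PGC-1α, fell by 1.13 ± 0.17 without drug (limma, adjusted p = 0.00725) and by 0.64 with drug (limma, adjusted p = 0.0483). Ppargc1b, the gene of a second coactivator, fell by 1.16 (limma, adjusted p = 0.0442), whereas Nrip1, encoding a corepressor, rose by 1.49 (limma, adjusted p = 0.0147) and the lipid droplet gene Plin2 by 1.32 (limma, adjusted p = 0.0252). With drug Esrrg, encoding ERRγ, fell by 1.08 (limma, adjusted p = 0.0281).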

How the data were processed

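RNA of mouse kidneys was measured in 8 libraries, grouped by the labels' titles, from oligo(dT)-selected RNA extracted with TRIzol, per the labels' protocols. The deposited values are FPKM per gene, with 2 decimals; the unit was inferred from the deposited values, since no header names it. Bowtie2, DESeq2 and mm10 are named without role or version, per the submitters' processing notes, and the sources used here do not say how reads were counted. Depth was estimated from the steps of low values of 998 genes with 1 transcript of 600 to 1500 bp; 69.0 to 84.4% of low values lay within 0.15 of a whole read, too few to recover counts, so a count test was not run.

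Of 20245 entries, 5 were left out (2 symbols that occur more than once, and a dash), and 14391 genes that reached 1 FPKM in 2 or more libraries were tested. The test was limma 3.58.1 (R 4.3.3) on log2(FPKM + 1), with a mean for each of 4 groups over all 8 libraries. It used empirical Bayes with trend and robust settings, and Benjamini-Hochberg adjustment over these genes (threshold 0.05). Its settings were run on simulated data with noise independent between genes and libraries, so the error rate in the real data was not tested. Fold changes on the log2(FPKM + 1) scale understate those of low genes. The members and all lists were chosen with earlier results of these data known. Values in every library are given for members past the threshold in any of the 4 group comparisons and for the 3 most abundant; of each other list, up to 4 genes with the smallest adjusted p are named, and Eci2, Etfdh, Ehhadh and Acadl were shown in full after their values were seen. Alternatives were a stricter or no filter, a pseudocount of 0.1, 2 scalings, a replicate block, fits of the groups compared, empirical Bayes without those settings, each library left out, and, added after seeing the data, a length and GC correction and a crossed pairing. Symbols of all 38 members matched RefSeq (GRCm38.p6, the assembly of mm10) for coordinates, 34 for promoters, and all 38 matched GENCODE M21 for transcript length.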

Additional observations from a re-analysis of the deposited data

Results flagged for a closer look

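In 3 of 38 members both flavopiridol libraries lay beyond both vehicle libraries, in opposite directions in wild-type and polycystic kidneys. Of all genes tested 7.69% had this pattern, close to the members' share, so the count sets the members apart in nothing. The difference itself was tested as an interaction in limma with Benjamini-Hochberg adjustment. Hadha was higher in both treated wild-type libraries and lower in both treated polycystic libraries, with an interaction of −0.65 on the log2 scale (limma, adjusted p = 0.47). Acsl1 had the same pattern, with −0.78 (limma, adjusted p = 0.42). Etfb had the opposite one, with 0.90 (limma, adjusted p = 0.42). None passed. With the length and GC trends removed the values were −0.46, −0.54 and 0.61. Hadha had its highest level, 77.01 FPKM, in WT_FP replicate 2, the library with 1714 FPKM of summed fat cell markers, whose part in this value was not tested.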

How the results depend on the processing

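Every member called between genotypes kept its direction in every alternative run. The count of members called between PKD_DMSO and WT_DMSO, 10, was 6 without the filter, 6 with the replicate block, 5 in the fit of the groups compared, and between 0 and 8 with 1 library left out. Between PKD_FP and WT_FP the 17 became 9 without the filter, 6 after median-of-ratios scaling, 7 with the replicate block, 4 in the fit of the groups compared, and 0 to 18 with 1 library left out. Fewer libraries also leave fewer degrees of freedom, and the cause of the remaining moves was not tested. With the length and GC correction the counts were 8 and 14. Leaving 1 library of a group out assumes that the other varies like the rest. Both drug comparisons and the interaction gave 0 in every setting run.

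The labels do not say that replicate numbers pair libraries, and the data were mixed. Deviations of the first replicates correlated at 0.48 between WT_FP and PKD_FP, where the block called 7 members, with 6 of the 17 kept. They correlated at 0.15 between WT_FP and PKD_DMSO and 0.09 between PKD_DMSO and PKD_FP. The remaining values were −0.18 between WT_DMSO and PKD_DMSO, −0.43 between WT_DMSO and PKD_FP and −0.52 between WT_DMSO and WT_FP. A crossed pairing, added after seeing the data, called 12 members between PKD_DMSO and WT_DMSO and 0 between WT_FP and WT_DMSO. It was a block in the fit of the groups compared, which without it called 5 and 0. Because these same data led to the pairing, its counts are no support for the calls.

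The gap between peroxisomal and mitochondrial medians ran, with 1 library left out, from 0.058 to 0.36 between PKD_DMSO and WT_DMSO, −0.66 to −0.47 between PKD_FP and PKD_DMSO, −0.17 to 0.081 between WT_FP and WT_DMSO, −0.43 to 0.23 between PKD_FP and WT_FP, and −0.56 to −0.26 for the interaction. Without Acsm1, Acsm2, Acsm3 and Pex11a it was −0.46 between PKD_FP and WT_FP. With Eci2 and Acad11 counted as peroxisomal it was −0.098 there and 0.26 between PKD_DMSO and WT_DMSO, and with quantile normalization −0.19 between WT_FP and WT_DMSO. Depth limited Acsm3 most, at 0.20 to 4.23 FPKM.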
